A study of Mus musculus with 93 samples.

Results

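The genes described here are 10 genes of the step from growth signals into the cell cycle, Myc, Mycn, Max, Ccnd1, Ccnd2, Ccnd3, Cdk4, Cdk6, Cdkn1b and Rb1, chosen by name from the 24514 genes of the count table. All 10 were found. RNA was sequenced from libraries of 10 sorted cells each, taken from mouse cells that carry Hcn4-GFP, Tbx1-Cre and the Ai9 reporter in every group. GFP follows expression of Hcn4, which marks the first heart field (FHF), and RFP marks cells in which Tbx1-Cre has acted, with their progeny, used for the second heart field (SHF). Cells came from embryos (in vivo, 5 GFP+ and 4 RFP+ libraries) or from day 5.5 spheroids grown from an embryonic stem cell line with these alleles (in vitro, 38 GFP+ and 46 RFP+ libraries). The sample titles place the embryos at embryonic day 8.5, while the study's design text and extraction protocol give E7.75. Spheroids were induced with growth factors of the Activin, Bmp and Wnt families, in a combination that the labels do not give per sample. No strain is given, and the labels do not tie wells to embryos or to differentiations, so n counts wells and p-values measure the spread between wells, which may be technical.

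Myc and Mycn are related transcription factors that bind DNA as partners of Max and drive genes of growth and cell division. The D cyclins, encoded by Ccnd1, Ccnd2 and Ccnd3, are made in response to growth signals and activate the kinases Cdk4 and Cdk6, which phosphorylate the retinoblastoma protein (Rb1) and so release E2F factors to switch on genes of S phase. Cdkn1b (p27) restrains cyclin-dependent kinases, and Mycn and the D cyclins are known to be needed for growth of the embryonic heart.

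The upstream sequences of a pair of these genes are shown because Cdk4 was called in both sources and Mycn was the gene whose populations separated most clearly in vitro. RefSeq promoters (GRCm38.p6) were given for 6 of the 10 genes, Mycn, Max, Ccnd3, Cdk4, Cdk6 and Cdkn1b, and not for Myc, Ccnd1, Ccnd2 and Rb1. Each line holds the 250 bases before a RefSeq start site, on the strand of the gene. The gene positions given further on are from GENCODE M21, and the end of each line overlaps the GENCODE span of its gene. Capitals mark the E-box CACGTG, the sequence bound by Myc with Max, and the E2F motifs TTTGGCGC and TTTCGCGC, each read on both strands.
Cdk4, chr10:127063285-127063534, plus strand: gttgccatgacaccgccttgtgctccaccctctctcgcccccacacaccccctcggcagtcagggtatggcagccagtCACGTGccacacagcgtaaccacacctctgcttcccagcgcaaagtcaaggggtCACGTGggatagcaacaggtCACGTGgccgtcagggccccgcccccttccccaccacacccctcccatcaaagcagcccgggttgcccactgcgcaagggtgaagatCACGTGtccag
Mycn, chr12:12941837-12942086, minus strand: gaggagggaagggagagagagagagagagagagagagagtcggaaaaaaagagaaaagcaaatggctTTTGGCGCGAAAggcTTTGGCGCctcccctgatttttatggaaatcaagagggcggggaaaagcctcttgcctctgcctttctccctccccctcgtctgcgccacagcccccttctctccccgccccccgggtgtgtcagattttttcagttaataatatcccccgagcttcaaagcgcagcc
The Cdk4 sequence held 4 E-boxes, beginning 172, 118, 98 and 11 bases before the start, and no E2F match. The Mycn sequence held 3 E2F matches, of which the first pair overlaps, and no E-box. The Cdk6 sequence held 1 E-box, and those of Max, Ccnd3 and Cdkn1b held neither motif. Over the 32851 promoters of the same length in the table, 6.02% held an E-box and 0.654% an E2F match, and 7 promoters held 4 or more E-boxes. A match describes the letters and does not show that a factor binds there.

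Levels are given as CPM, the counts of a gene scaled to the normalized total of its library, on 1 scale over the 93 libraries. Counts on genes ran from 712732 to 2525460 per library in vivo and from 445071 to 5658882 in vitro, apart from 1 in vitro GFP+ library, well C9, with 6288 counts. Every 0 of these 10 genes among in vitro GFP+ libraries is in C9, so the range without it is given beside them. In vivo, GFP+ libraries detected 6189 to 8302 genes and RFP+ libraries 10263 to 13052. The summed CPM of 8 cardiac muscle markers was 17800 to 51500 in the in vivo GFP+ libraries and 1170 to 2250 in the RFP+ ones, with a median of 53.1 and a highest value of 1250 in vitro GFP+, and of 58.4 and 139 in vitro RFP+. Of 4 of these markers tested in vitro, 3 were called lower in RFP+ cells. Of all genes tested in vitro, 77.9% were called and 40.1% were called lower in RFP+ cells, so this count says little by itself. Of 8 pluripotent cell markers, all were detected in both in vitro groups, and Pou5f1 and Zfp42 were at 0 in every in vivo library. Their sum had a median of 152 and a highest value of 1660 CPM in vitro GFP+, and of 45.9 and 571 CPM in vitro RFP+. In vivo the sum ran from 0 to 492 CPM in GFP+ and from 0.844 to 83.8 CPM in RFP+ libraries. Tdgf1, of this list, went the other way in both populations. Its means were 181 CPM in vivo and 16.4 CPM in vitro in GFP+ cells, and 27.5 and 18.9 CPM in RFP+ cells. It had counts in 2 of the 5 in vivo GFP+ libraries. Endothelial markers summed to 0 to 89.3 CPM in vivo GFP+ and 55.7 to 348 CPM in vivo RFP+. Cdh5, Pecam1 and Emcn were at 0 in the in vivo GFP+ libraries, while Tek averaged 29.8 CPM there and 14.7 CPM in vivo RFP+. Endoderm markers summed to 0 to 21.5 CPM in vivo GFP+ and 7.88 to 469 CPM in vivo RFP+. Sox17, Foxa2, Ttr and Cldn6 were at 0 in the in vivo GFP+ libraries, and Afp in both in vivo groups. Apoa1 averaged 4.51 CPM in vivo GFP+ and 0.723 CPM in vivo RFP+. Tek and Apoa1 each had counts in 2 in vivo GFP+ libraries. In vivo RFP+, Cldn6 averaged 255 CPM, while Sox17, Foxa2, Afp, Ttr and Apoa1 each averaged 3.14 CPM or less. In vitro the endoderm sum had a median of 160 CPM in GFP+ and 71.1 CPM in RFP+ libraries, where Cldn6 averaged 161 and 58.0 CPM. Blood markers summed to at most 0.433 CPM in vivo GFP+ and 780 CPM in vivo RFP+, and to at most 13.2 CPM in vitro. The value of 780 CPM was that of library F12 alone, with 533 counts of Hbb-y and 536 of Hba-x, and the in vivo RFP+ median was 0.703 CPM. The part of these markers and of gene detection in the results was not tested. In a library of several cells, fewer cells of a type and less RNA per cell cannot be told apart.

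In vivo, RFP+ cells held more of the D cyclin Ccnd2 and of its kinase Cdk4 than GFP+ cells. Of the 10 genes, 8 passed the filter on low counts, and 2 of these were called at an adjusted p under 0.1 in edgeR's quasi-likelihood test, both higher in RFP+ cells. Of all 8503 genes tested, 10.1% were called, with 6.21% higher in RFP+ cells and 3.88% lower. The median log2 fold change was 1.02 over the 8 genes and 0.09 over all genes. DESeq2 called neither of the 2, with 1936 genes called in all. Ccnd2, Cdk4 and Mycn did not overlap between the populations, which was so for 17.3% of all genes tested. In vitro all 10 genes were called, with 4 higher in RFP+ cells (Mycn, Ccnd1, Ccnd3 and Cdk4) and 6 higher in GFP+ cells (Myc, Max, Ccnd2, Cdk6, Cdkn1b and Rb1). There 77.9% of 9940 genes were called, with 37.8% higher in RFP+ cells and 40.1% lower, so a call in vitro says little by itself and the size of the difference is the more useful value. The median log2 fold change in vitro was -0.35 over the 10 genes and -0.02 over all genes. In vitro RFP+ wells lay in plate columns 1 to 6 and GFP+ wells in columns 7 to 11, so population and column cannot be told apart.

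**Figure D1:**
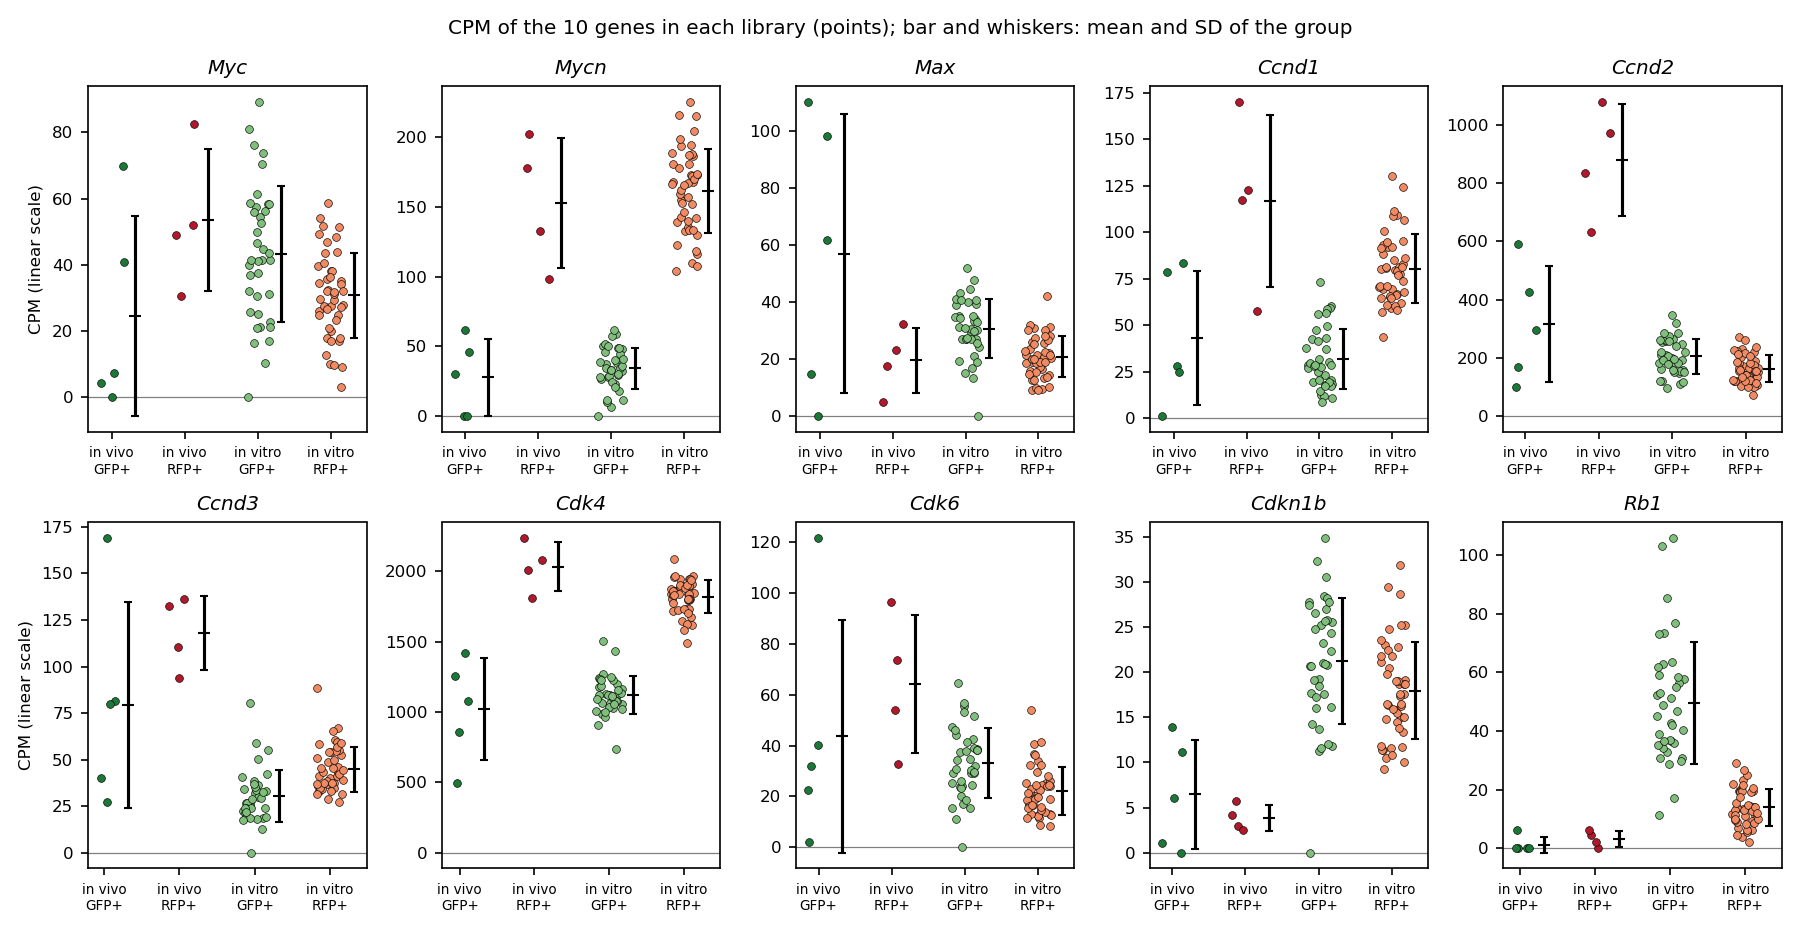
CPM (linear vertical axes, 1 panel per gene) in each library of the 4 groups, with the mean and SD beside the points. In vitro, the Mycn values of RFP+ cells, from 104 to 226 CPM, lie above every GFP+ value, while Rb1 in vivo is at 0 in 4 of 5 GFP+ libraries.

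Mycn (GRCm38, chr12:12936093-12941914, minus strand), a growth-promoting factor closely related to Myc, was the gene of the 10 whose populations did not overlap in vitro. The in vivo GFP+ libraries A12 to E12 held 30.1, 46.3, 0, 62.1 and 0 CPM, and the RFP+ libraries F12, G11, G12 and H11 held 98.4, 133, 178 and 202 CPM. Every RFP+ library lay above every GFP+ library. The log2 fold change was 2.44 with a standard error of 1.21 (adjusted p = 0.382, edgeR), so the difference was not called, and p was 0.0238 by exact permutation of log2 CPM, where the smallest possible is 0.00794. With adjusted deviances in the quasi-likelihood fit, an alternative chosen after seeing the data, Mycn was called at a log2 fold change of 2.04 (edgeR, adjusted p = 0.0287).

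In vitro, Mycn ran from 0 to 61.5 CPM in GFP+ libraries with a median of 34.6, and from 6.64 CPM without C9. In RFP+ libraries it ran from 104 to 226 CPM with a median of 166. The groups did not overlap, which held for 2.01% of the genes tested in vitro and for no other gene of the 10. RFP+ cells were higher by 2.16 on the log2 scale, with a standard error of 0.09 (edgeR, adjusted p = 2.54e-37), or 4.47-fold.

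Myc (chr15:61985391-61990374, plus strand) itself took a different course in the cultured cells. In vivo it was at 70.0, 0, 40.9, 4.203 and 7.49 CPM in GFP+ libraries A12 to E12 and at 30.6, 52.0, 49.0 and 82.4 CPM in RFP+ libraries. The ranges overlapped, and the log2 fold change of 1.08 (standard error 1.43, edgeR adjusted p = 0.874) was not called. It was 1.93 without library A12, which held the highest GFP+ value. In vitro, Myc ran from 0 to 89.2 CPM with a median of 41.5 in GFP+ and from 3.25 to 58.6 CPM with a median of 30.4 in RFP+ libraries (from 10.3 CPM in GFP+ without C9). Here it was lower in RFP+ cells, by a log2 fold change of -0.57 (standard error 0.14, edgeR adjusted p = 0.000241), while p was 0.056 by permutation of log2 CPM. That permutation included C9, which held 0 counts of Myc, and was not repeated without it.

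The balance of Mycn to Myc was read per length, as counts per kilobase of exon, in libraries with at least 20 counts for the pair. Mycn made up 81.9% ± 7.56 of the pair in vitro RFP+ (SD, n = 46) and 42.2% ± 15.4 in vitro GFP+ libraries (SD, n = 37). Mycn was the larger of the pair in 46 of 46 RFP+ and 9 of 37 GFP+ libraries. In vivo, the RFP+ libraries lay close together, at 73.7, 69.0, 76.0 and 68.2%. The GFP+ libraries were spread over the whole scale, at 27.3% in A12, 100% in B12, 0% in C12 and 92.8% in D12, with E12 left out at 7 counts. B12 held 107 counts of Mycn and none of Myc, and C12 held 33 counts of Myc and none of Mycn.

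**Figure D2:**
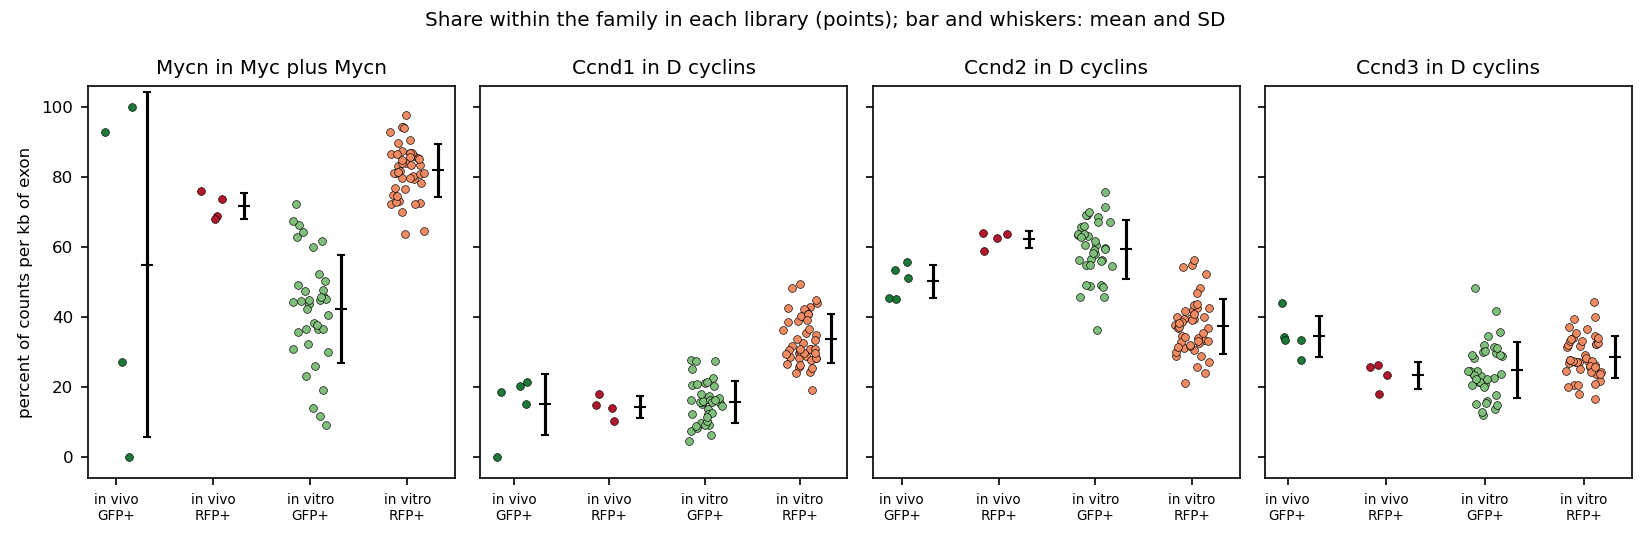
Share of Mycn in Myc plus Mycn and of each D cyclin in their sum, in percent of counts per kilobase of exon, for each library of the 4 groups with at least 20 counts, with mean and SD. Mycn made up 63.8 to 97.8% of its pair in the in vitro RFP+ libraries, and Ccnd2 made up 58.8 to 64.0% of the D cyclins in vivo RFP+.

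Max (chr12:76937269-76962201, minus strand), the partner that both Myc factors need to bind DNA, was at 0, 14.7, 110, 61.6 and 98.4 CPM in the in vivo GFP+ libraries and at 5.10, 23.2, 17.7 and 32.2 CPM in the RFP+ libraries. The GFP+ values enclosed the RFP+ values, and the log2 fold change of -1.62 (standard error 1.36, edgeR adjusted p = 0.745) was not called. In vitro, Max ran from 0 to 52.0 CPM in GFP+ (median 30.7, and from 13.3 without C9) and from 9.03 to 42.2 CPM in RFP+ libraries (median 20.2). It was lower in RFP+ cells by a log2 fold change of -0.62 (standard error 0.11, edgeR adjusted p = 1.25e-07, permutation p = 0.00088), although the groups overlapped.

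Among the D cyclins, Ccnd1 (chr7:144929931-144939925, minus strand) had nearly the same log2 fold change in both sources but passed the test in vitro alone. In vivo, GFP+ libraries A12 to E12 held 28.0, 83.5, 24.8, 78.5 and 1.07 CPM, and RFP+ libraries held 117, 170, 57.4 and 123 CPM. G12, at 57.4 CPM, was the RFP+ library that fell within the GFP+ range. The log2 fold change was 1.41 (standard error 0.96, edgeR adjusted p = 0.608, exact permutation p = 0.0635). In vitro, Ccnd1 ran from 8.64 to 73.3 CPM in GFP+ (median 28.4, and up to 60.3 without C9, where 73.3 CPM is 1 count) and from 43.4 to 130 CPM in RFP+ libraries (median 79.5). RFP+ cells were higher in vitro by 1.37 on the log2 scale (standard error 0.11, edgeR adjusted p = 7.29e-20, permutation p = 1e-05, the smallest the resamples can give). Ccnd1 shares 818 exonic bases with LTO1 on the opposite strand, and the strand setting of the counting is not given in the sources used here. LTO1 is absent from the count table under that name, so the value of Ccnd1 is uncertain to that extent.

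Ccnd2 (chr6:127125162-127152193, minus strand), the D cyclin with the highest level per length in every group, rose in RFP+ cells in vivo and fell in RFP+ cells in vitro. In vivo it was at 168, 427, 99.2, 297 and 589 CPM in GFP+ libraries A12 to E12 and at 834, 1079, 633 and 971 CPM in RFP+ libraries F12, G11, G12 and H11. The lowest RFP+ library was above the highest GFP+ library, E12, by a small margin. The log2 fold change was 1.43 (standard error 0.43, edgeR adjusted p = 0.0637), and the call was lost without A12, D12, F12, G11 or H11 and in DESeq2 (adjusted p = 0.181). Without each in vivo library in turn the log2 fold change ran from 1.20 to 1.80. Ccnd2 shares 374 exonic bases with Gm43126 on the opposite strand, which is absent from the count table.

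In vitro, Ccnd2 ran from 97.8 to 346 CPM in GFP+ (median 199) and from 73.3 to 271 CPM in RFP+ libraries (median 156), with wide overlap. RFP+ cells were lower by -0.38 on the log2 scale (standard error 0.09, edgeR adjusted p = 6.87e-05). The in vivo log2 fold change was larger than the in vitro one by 1.81 (standard error 0.44, 95% interval 0.77 to 2.84, p = 0.00437 before adjustment). This difference stands at the threshold, and its call depends on how 114 genes with no counts in 1 group are handled. The adjusted p was 0.0851 when the standard error of those genes was taken from their F statistic, 0.1135 when it was set to infinity, the form run first, and 0.112 when they were left out. The first form was adopted after the value of Ccnd2 had been seen, so the call is not firm. Of the 8 genes tested in both sources, none but Ccnd2 was called or had an unadjusted p under 0.05, and 5.68% of 8182 genes were called by this test, 3.29% larger in vivo and 2.40% larger in vitro. An interaction term in 1 edgeR fit over the 4 groups, which assumes the same spread in every group, called 6 of the 10 genes and 6889 of all 12655 genes tested there.

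Ccnd3 (chr17:47505051-47599691, plus strand) was at 39.8, 81.3, 27.3, 79.9 and 169 CPM in the in vivo GFP+ and at 136, 110, 93.7 and 133 CPM in the RFP+ libraries. The RFP+ values lay within the GFP+ range, whose top was E12, and the log2 fold change of 0.52 (standard error 0.68, edgeR adjusted p = 0.871) was not called. In vitro, Ccnd3 ran from 0 to 80.3 CPM in GFP+ (median 27.9, and from 12.9 without C9) and from 27.2 to 88.7 CPM in RFP+ libraries (median 41.8). It was higher in RFP+ cells by a log2 fold change of 0.50 (standard error 0.10, edgeR adjusted p = 9.24e-06, permutation p = 1e-05). Its exons share 361 bases with Bysl on the opposite strand and 881 bases at 96.3% identity with the pseudogene Ccnd3-ps, and the strand setting of the counting is not given in the sources used here, so the value of Ccnd3 is uncertain to that extent. Bysl was higher in RFP+ cells in vitro by 0.35.

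The make-up of the D cyclins is given on the per-length scale. Ccnd1 made up 33.9% ± 6.99 of the 3 in vitro RFP+ libraries (SD, n = 46) and 15.7% ± 5.98 in vitro GFP+ (SD, n = 37). Ccnd2 made up 37.4% ± 7.86 in vitro RFP+ and 59.4% ± 8.41 in vitro GFP+ (SD, same n). In vivo, Ccnd2 took 62.3% ± 2.38 in RFP+ (SD, n = 4) and 50.2% ± 4.78 in GFP+ libraries (SD, n = 5). The ranges, 58.8 to 64.0% and 45.2 to 55.9%, did not overlap per length. With no length correction they overlapped, at 76.7 to 80.7% in RFP+ and 65.2 to 77.6% in GFP+. Ccnd3 took 23.4% ± 3.86 in vivo RFP+ and 34.6% ± 5.83 in vivo GFP+. Its ranges per length, 17.9 to 26.3% and 27.9 to 43.9%, did not overlap either. Ccnd1 stood at 14.4% ± 3.17 in vivo RFP+ and 15.2% ± 8.71 in vivo GFP+. These shares carry no test, and how often shares in other gene families separate the populations was not computed.

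Cdk4 (chr10:127063534-127067920, plus strand), the kinase that the D cyclins activate, was the most abundant of the 10 genes per length in every group, at 497 ± 176 CPM per kilobase in vivo GFP+ (SD, n = 5) and 991 ± 86.2 in vivo RFP+ (SD, n = 4). In CPM, GFP+ libraries A12 to E12 held 1416, 1255, 492, 1077 and 857, and RFP+ libraries held 1809, 2082, 2009 and 2235. The populations did not overlap. The log2 fold change was 0.96 (standard error 0.25, edgeR adjusted p = 0.0253), or 1.95-fold, and the call held without each in vivo library in turn, with adjusted p from 0.0156 to 0.082. In DESeq2 it was 0.84 (adjusted p = 0.202).

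In vitro, Cdk4 ran from 733 to 1505 CPM in GFP+ (median 1117, and from 908 without C9) and from 1492 to 2085 CPM in RFP+ libraries (median 1837). The highest GFP+ library just passed the lowest RFP+ library. The gain in RFP+ cells was 0.66 on the log2 scale (standard error 0.03, edgeR adjusted p = 2.75e-39), or 1.58-fold. The 2 sources differed by 0.31 (95% interval -0.28 to 0.89, adjusted p = 0.787), an interval that spans changes in both directions. Cdk4 shares 641 exonic bases with Tspan31 on the opposite strand. For Tspan31 itself the values were 0.28 in vivo, which was not called, and 0.51 in vitro.

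Cdk6 (chr5:3341485-3531008, plus strand), the other kinase of the D cyclins, was far less abundant and did not move with Cdk4 in vitro. Cdk4 made up at least 95.8% of the pair per length in every library with 20 counts or more. In vivo, Cdk6 was at 2.15, 40.2, 122, 22.4 and 32.1 CPM in GFP+ and at 32.8, 54.1, 96.3 and 73.8 CPM in RFP+ libraries. The log2 fold change of 0.47 (standard error 1.08, edgeR adjusted p = 0.946) was 1.36 without C12, the library with the highest GFP+ value. In vitro it ran from 0 to 64.6 CPM in GFP+ (median 31.3, and from 10.997 without C9) and from 8.54 to 54.0 CPM in RFP+ libraries (median 20.8). It was lower in RFP+ cells by -0.64 on the log2 scale (standard error 0.13, edgeR adjusted p = 3.12e-06, permutation p = 0.00381).

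Cdkn1b (chr6:134920401-134925513, plus strand), which encodes the inhibitor p27, was low in the embryo and fell under the filter on low counts there. The in vivo GFP+ libraries held 1.08, 6.06, 0, 11.2 and 13.9 CPM and the RFP+ libraries 2.91, 4.22, 2.53 and 5.73 CPM. The RFP+ values sat within the GFP+ range, and the mean log2 CPM differed by -0.07 (exact permutation p = 0.944). In vitro, Cdkn1b ran from 0 to 34.9 CPM in GFP+ (median 20.95, and from 11.3 without C9) and from 9.27 to 31.9 CPM in RFP+ libraries (median 17.5). On the log2 scale RFP+ cells stood at -0.32 relative to GFP+ cells (standard error 0.10, edgeR adjusted p = 0.00294), and p was 0.263 by permutation of log2 CPM. The permutation again included C9, with 0 counts of Cdkn1b, and was not repeated without it.

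Rb1 (chr14:73183673-73325822, minus strand), the target of the D cyclin kinases, was close to undetected in the embryo and well measured in spheroids. In vivo it had 13 counts in GFP+ library D12, at 6.07 CPM, and none in the other 4 GFP+ libraries, and was at 4.37, 6.33, 0 and 2.15 CPM in the RFP+ libraries. The mean log2 CPM was higher in RFP+ cells by 1.08 (exact permutation p = 0.246). In vitro, Rb1 ran from 11.4 to 105.8 CPM in GFP+ (median 45.9) and from 2.26 to 28.9 CPM in RFP+ libraries (median 13.2). It had the largest fall of the 10 genes in RFP+ cells, -1.83 on the log2 scale (standard error 0.14, edgeR adjusted p = 1.95e-22, permutation p = 1e-05). Lpar6 lies within the Rb1 gene on the opposite strand and moved the other way in vitro, by 0.70.

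**Figure D3:**
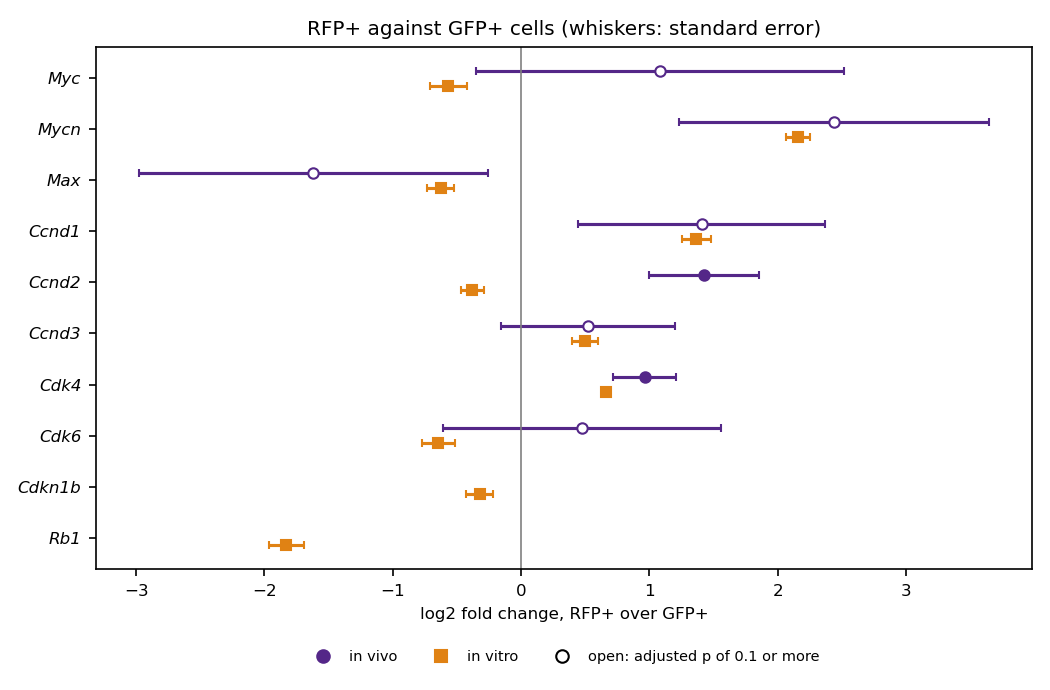
Log2 fold change of RFP+ over GFP+ cells (horizontal axis) with its standard error for each gene, in vivo and in vitro, with open symbols for an adjusted p of 0.1 or more and no in vivo value for Cdkn1b and Rb1. The in vitro errors are small throughout, and Ccnd2 stands at 1.43 in vivo and -0.38 in vitro.

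The embryo and spheroid cells of each population were then set side by side. These comparisons use the same libraries as those above, so they are not independent of them. In GFP+ cells, 7 of the 10 genes were called, against 68.0% of 11822 genes tested, with 3 higher in vivo and 4 higher in vitro (19.7% and 48.3% of all genes). Over all genes the median log2 fold change was -0.67, and it was -0.22 with DESeq2 size factors, so values are also given relative to it. Ccnd3 was higher in vivo by 1.21 (standard error 0.31, edgeR adjusted p = 0.000244), or 1.87 above the median of all genes. Ccnd2 and Max were higher by 0.48 and 0.69 (edgeR adjusted p = 0.0619 and 0.0811), or 1.14 and 1.36 above that median. The call of Ccnd2 was lost without B12 or E12, and that of Max without C12, D12 or E12.

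The other 4 called genes were lower in vivo in GFP+ cells. Rb1 had a log2 fold change of -5.04 (standard error 0.57, edgeR adjusted p = 2.6e-10). Its size rests on D12, and the call held without each in vivo library in turn, with log2 fold changes from -9.49 to -4.63. Without D12, Rb1 had no counts in vivo GFP+, and its in vitro mean was 17.3-fold a floor of 3 counts per in vivo library. The floor covers counting error only and does not bound the level in the cells. Its GFP+ groups did not overlap, as for 6.08% of all genes. Cdkn1b was lower by -1.86 (standard error 0.36, edgeR adjusted p = 7.12e-05), or -1.19 relative to the median. Myc was lower by -1.07 (edgeR adjusted p = 0.059), and -1.99 without A12, and this call was lost with DESeq2 size factors (adjusted p = 0.328), with total counts, and without B12, D12 or E12. Cdk4, at -0.30, turned to 0.13 with DESeq2 size factors, and was 0.37 above the median of all genes in the first case and 0.35 in the second. Its call was lost without C12 or E12. Mycn, Ccnd1 and Cdk6 were not called, at -0.46, 0.36 and 0.21.

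In RFP+ cells, 8 of the 10 genes were called, against 42.6% of 11147 genes, with 6 higher in vivo and 2 higher in vitro (20.1% and 22.5% of all genes). The median over all genes was -0.04 here. Ccnd2 was higher in the embryo by 2.45 (standard error 0.18, edgeR adjusted p = 4.67e-22), or 5.48-fold, with the lowest in vivo library at 633 and the highest in vitro library at 271 CPM. Cdk6 was higher by 1.55 (standard error 0.29, edgeR adjusted p = 1.71e-06) and Ccnd3 by 1.42 (standard error 0.18, edgeR adjusted p = 1.82e-10). Ccnd2, Ccnd3 and Cdkn1b did not overlap between the sources, as for 4.55% of all genes.

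Myc, Ccnd1 and Cdk4 were higher in vivo by smaller amounts, 0.82, 0.56 and 0.17 (edgeR adjusted p = 0.0254, 0.00665 and 0.00895). The call of Ccnd1 was lost without G11 and those of Myc and Cdk4 without H11. Cdkn1b and Rb1 were lower in vivo, by -2.17 (standard error 0.33, edgeR adjusted p = 4.54e-07) and -2.06 (standard error 0.48, edgeR adjusted p = 0.000595). Mycn and Max were not called, and stood at -0.06 and -0.08. For Mycn the means were 153 ± 46.3 CPM in vivo (SD, n = 4) and 162 ± 30.0 CPM in vitro (SD, n = 46).

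**Figure D4:**
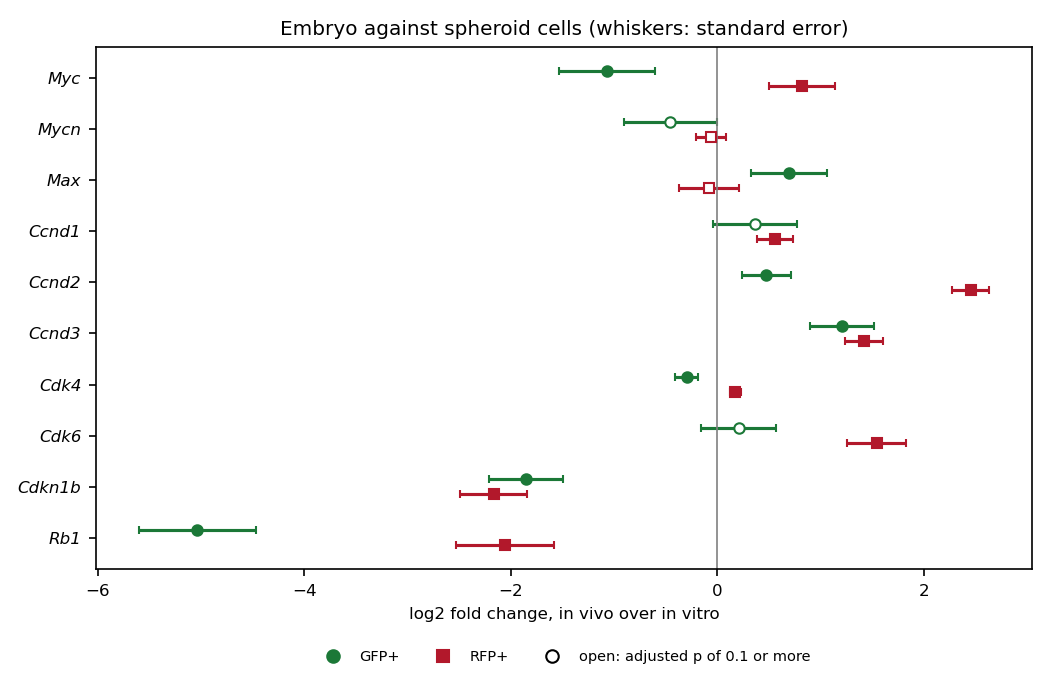
Log2 fold change of embryo over spheroid cells (horizontal axis) with its standard error for each gene, in GFP+ and RFP+ cells, with open symbols for an adjusted p of 0.1 or more. Cdkn1b and Rb1 are lower in the embryo in both populations, and Ccnd3 is higher in both. The size of the Rb1 value of GFP+ cells rests on library D12, while its call held without D12.

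Ordered by mean level over the 4 groups, Mycn separated by population, with means of 162 and 153 CPM in vitro and in vivo RFP+ and of 34.3 and 27.7 CPM in vitro and in vivo GFP+, and neither pair of sources was called. The in vivo difference between the populations was not called for Mycn. Ccnd1 was also higher in both RFP+ groups than in both GFP+ groups, but with the embryo above the spheroid in each, from 117 CPM in vivo RFP+ through 80.3 in vitro RFP+ and 43.2 in vivo GFP+ to 31.8 in vitro GFP+, where neither the last pair nor the in vivo difference between the populations was called. Ccnd3 was ordered by source, from 118 and 79.4 CPM in vivo RFP+ and GFP+ to 44.9 and 30.3 CPM in vitro, and the in vivo pair was not called. Rb1 and Cdkn1b were likewise ordered by source, with the higher levels in vitro.

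Across in vitro libraries, with the 7 pairs of near-identical wells summed and C9 left out, the genes were compared with each other within each population (37 GFP+ and 39 RFP+ libraries). The values are descriptions across libraries that share preparation and depth. Ccnd3 and Rb1 had a negative rank correlation in both, -0.49 in GFP+ and -0.47 in RFP+ libraries, and Ccnd2 and Cdk6 a positive one, 0.42 and 0.34. Mycn and Cdk4 had 0.43 in GFP+ and 0.22 in RFP+ libraries, and Myc and Mycn 0.07 and -0.14. Among 4168 genes with a mean of at least 50 CPM, those whose pattern was most like Myc by mean rank correlation within the 2 populations were Ss18, Ctps and Timm23 (0.39, 0.39 and 0.37). Those most like Mycn were Gnas, Birc5 and Cdh11 (0.50, 0.49 and 0.47). For Ccnd1 they were Arpp19, Bud31 and Nxt1 (0.42, 0.39 and 0.38), and for Ccnd2 they were Gja1, Alad and Usp37 (0.46, 0.44 and 0.42). All of these are the highest values picked from 4168 genes. The level that such a pick reaches for unrelated genes was not computed, so no link is drawn from them.

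The surrounding pathway was described by 5 lists. Their counts in vitro are read against the 77.9% of all genes called there, 37.8% higher and 40.1% lower in RFP+ cells, and their medians against -0.02 over all genes. Of 8 genes of cyclin E and A, their kinase and their turnover, 7 were called higher and 1 lower, with a median log2 fold change of 0.90. Ccne1 and Ccne2, the E cyclins that act with Cdk2 at the start of S phase, were higher by 1.66 and 1.38, and Fbxw7, part of a ubiquitin ligase that marks cyclin E and Myc proteins for degradation, was lower by -1.36. In vivo none of the 8 was called by edgeR, where 10.1% of all genes were. Of 11 pocket proteins and E2F factors tested in vitro, 9 were higher and 1 lower, with a median of 0.59 against -0.02 over all genes. E2f8 and E2f5 were higher by 1.09 and 0.93, and the pocket protein Rbl2 was lower by -1.07.

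In vivo, 1 of 9 tested genes of that list was called, a share near the 10.1% of all genes called there. Rbl1, the pocket protein p107, had 30, 32, 38 and 47 counts in the RFP+ libraries and 1 count over the 5 GFP+ libraries, a ratio of 195 with a 95% counting interval of 34.4 to 7750 (edgeR adjusted p = 0.0162). Of the other CDK inhibitors, 3 of 6 were tested in vitro, with 2 higher in GFP+ and 1 in RFP+ cells. Cdkn1a, which encodes p21, averaged 504 ± 109 CPM in vitro GFP+ (SD, n = 38) and 59.8 ± 33.2 CPM in vitro RFP+ (SD, n = 46), a log2 fold change of -3.12. Its embryo means were far lower, 0.309 ± 0.474 CPM for GFP+ (SD, n = 5) and 1.99 ± 2.26 CPM for RFP+ libraries (SD, n = 4). Cdkn2b (p15) had -3.15 in vitro and no counts in vivo, and Cdkn2d (p19) had 0.18. Cdkn1c, which encodes p57 and is named here after its values were seen, went the other way, with 122 ± 61.8 CPM in vivo GFP+ and 66.1 ± 36.3 CPM in vivo RFP+ against 8.74 ± 8.44 and 1.48 ± 1.70 CPM in vitro (SD, n = 5, 4, 38 and 46). The embryo was higher by 3.62 in GFP+ and 5.52 in RFP+ cells on the log2 scale (edgeR adjusted p = 1.02e-10 and 8.35e-15). Cdkn2d was higher in the embryo by 0.85 in GFP+ cells (edgeR adjusted p = 0.0178) and was not called in RFP+ cells, at 0.21. In vivo, 2 of the 6 were tested and neither was called, where 10.1% of all genes were.

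Of the partners and antagonists of the Myc network, 7 of 9 were tested in vitro, 1 higher and 4 lower in RFP+ cells, with a median of -0.78 against -0.02 over all genes. The share called is close to the 77.9% over all genes. Mxd1, Mxi1 and Mga, which compete with Myc for Max or its sites, were lower by -1.35, -0.95 and -0.92. In vivo 4 were tested and none was called, where 10.1% of all genes were. Of 20 growth-associated genes known as Myc targets, 14 were higher and 4 lower in RFP+ cells in vitro, against 37.8% and 40.1% of all genes, with a median of 0.26 against -0.02. Bop1 and Nop56, of ribosome assembly, and Eif4e, of translation, were higher by 0.83, 0.60 and 0.59.

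In vivo, 2 of the 20 were called higher and 1 lower, a share near the 10.1% of all genes called there, with a median of 0.87 against 0.09 over all genes. Npm1, a nucleolar protein, was higher in RFP+ cells by 1.27 (standard error 0.18, edgeR adjusted p = 0.000943). Rrs1, of ribosome assembly, had no counts in any GFP+ library while the RFP+ mean was 17.97 ± 5.29 CPM (SD, n = 4). That mean was 6.99-fold a floor of 3 counts per GFP+ library. The floor covers counting error only, and GFP+ libraries detected fewer genes in vivo, so it does not bound the level in the cells. Hspd1, a mitochondrial chaperone, was lower in RFP+ cells by -0.80 (standard error 0.22, edgeR adjusted p = 0.0437). Between embryo and spheroid, the 20 genes had a median of -0.64 in GFP+ and 0.07 in RFP+ cells, close to the medians of all genes, -0.67 and -0.04.

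**Figure D5:**
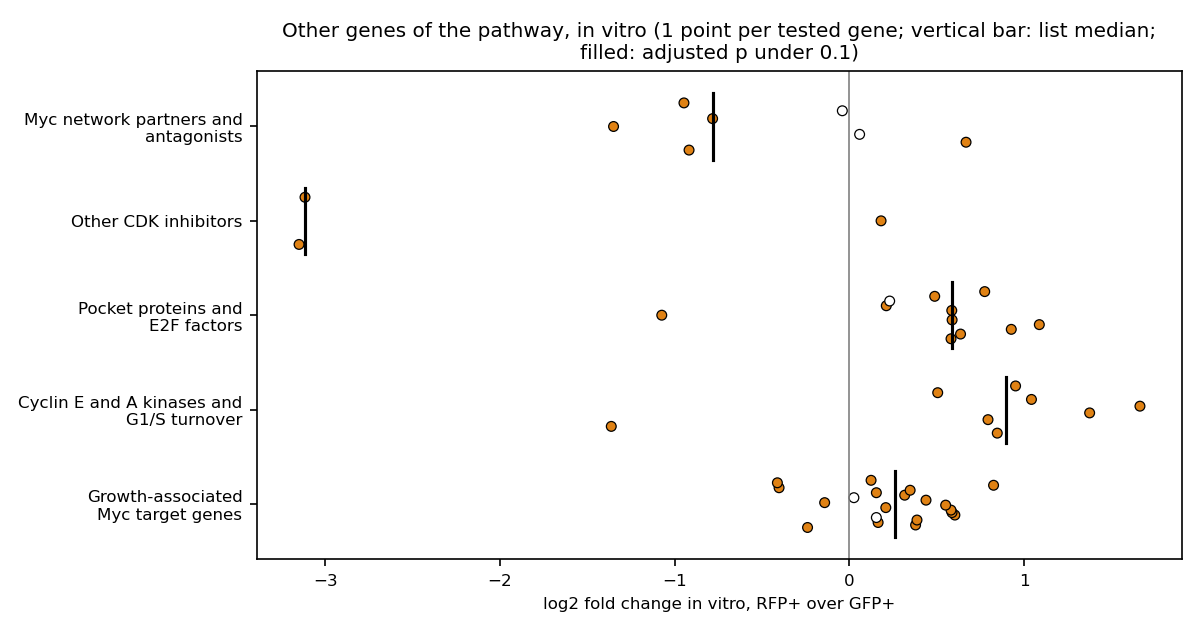
Log2 fold change in vitro of RFP+ over GFP+ cells (horizontal axis) for each tested gene of the 5 pathway lists, filled at an adjusted p under 0.1, with a vertical bar at each list's median. The medians run from -3.12 for the other CDK inhibitors to 0.90 for the cyclin E and A list.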

How the data were processed

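RNA of 93 libraries of 10 sorted cells each was measured. The authors deposited whole-number counts of reads per gene, not normalized, after Trimmomatic 0.36 (minimum quality 35, minimum length 36), HISAT2 2.0.4 on mm10 and featureCounts 1.5.2 of Subread. Whether counting used strand, and the annotation, are not given in the sources used here. Reads carry no molecular identifiers, so intervals and floors cover counting error only.

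From the counts, edgeR 4.0.16 tested each pair of groups in a separate fit (filterByExpr, TMM, legacy quasi-likelihood, Benjamini-Hochberg over all genes tested, called at an adjusted p under 0.1, the study's threshold). The study used DESeq2, run here as an alternative (version 1.42.0). The 2 sources were compared by the difference of their log2 fold changes over both standard errors, with 7 degrees of freedom. For genes with no counts in 1 group the standard error was taken from the F statistic, a choice made after the first result was seen. Single genes were tested by 2-sided permutation of log2 CPM (prior count 2, exact over 126 splits in vivo, 100000 resamples in vitro), not adjusted over the genes. The shallow well C9 was kept in the in vitro permutations. Levels per length use exon lengths of GENCODE M21. The fits were tested on simulated data.

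The genes and lists were chosen with earlier results of these data known. From each pathway list every gene called in vivo, and the 3 with the largest absolute log2 fold change called in vitro, are named. Pairs of wells in plate columns 3 and 4 of 7 rows were near-identical, with Pearson r 0.977 to 0.994, against at most 0.972 in 1028 other pairs. Chi-square per degree of freedom was 1.37 to 2.39, against at least 2.68 in the other pairs. Without molecular identifiers, such a difference beyond sampling noise cannot show that the wells of a pair hold different cells. They were counted separately, so n and SDs in vitro RFP+ may include duplicates. The permutations were not repeated with the pairs summed. The alternatives were other size factors, no filter, DESeq2, an adjusted p under 0.05, the near-identical wells summed, plate row as a covariate, libraries under 100000 counts left out and each in vivo library left out.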

Additional observations from a re-analysis of the deposited data

Results flagged for a closer look

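Rb1 in the in vivo GFP+ libraries was at 6.07 CPM in D12 and at 0 in the other 4, a gap that spans the whole range. Of 20 groups checked for a library far from the rest, this was the 1 found. A group with counts in a single library is always flagged by this check, so its nominal rate of about 1 in 20 does not apply here.

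The RFP+ over GFP+ log2 fold change of Ccnd2 was larger in vivo than in vitro by 1.81 in the test of that difference (standard error 0.44, adjusted p = 0.0851). The adjusted p was 0.1135 or 0.112 under the other ways of handling genes with no counts in a group. The in vivo and in vitro cells also differed in the summed CPM of cardiac muscle markers and in genes detected, and their part in the difference was not tested.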

How the results depend on the processing

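No paired analysis was possible because the groups share no replicate numbers in the labels. In vitro, all 90 alternative values of single genes kept their direction and side of the threshold, and all 10 genes were called under each alternative, the 7 near-identical pairs summed and plate row as a covariate included. In vivo, the 2 calls became 0 in DESeq2 and 1 at an adjusted p under 0.05, and 1 to 2 without each library in turn. GFP+ cells had 7 genes called between the sources, 4 at an adjusted p under 0.05, and 4 to 7 without each in vivo library, the lowest without E12, and RFP+ cells had 8, and 6 to 8 without each, the lowest without H11. The difference between the sources had 1 gene called, 6 with an interaction term in 1 fit, 0 at an adjusted p under 0.05, 0 with infinite errors, 0 with genes lacking counts in a group left out, and 0 to 1 without each in vivo library, with 0 without D12, F12, G11 or H11. The last 4 of these settings, adjusted deviances and a prior count of 0.5 were chosen after seeing the data.

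Over all genes, 858 were called in vivo against 1936 in DESeq2, 2000 with no filter and 1765 with adjusted deviances. The difference called 465 genes against 278 with infinite errors, 280 with those genes left out, 285 at an adjusted p under 0.05 and 6889 with the interaction term.

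Some signs turned. Cdk4 in GFP+ cells between the sources was 0.1343 with DESeq2 size factors and 0.1368 in DESeq2. The Ccnd1 difference was -0.00938 with the interaction term, and the Cdkn1b mean log2 CPM in vivo was 0.25 with a prior count of 0.5. Without each in vivo library, the log2 values between the sources ran from -0.0406 to 0.73 for Ccnd1 and from -0.57 to 0.56 for Cdk6 in GFP+ cells, and from -0.23 to 0.10 for Mycn and from -0.43 to 0.25 for Max in RFP+ cells. The difference of the sources ran from -0.28 to 0.45 for Ccnd1, from -0.19 to 0.52 for Ccnd3 and from -0.046 to 0.79 for Mycn, and the in vivo mean log2 CPM difference of Cdkn1b from -0.61 to 0.31. None of these was called in the report except Cdk4. The cause was not tested. With no length correction, the mean share of Ccnd2 among the D cyclins was 70.4, 79.0, 76.6 and 55.6% in vivo GFP+, in vivo RFP+, in vitro GFP+ and in vitro RFP+. With 4 or 5 wells of 10 cells per in vivo group, genes under about 20 counts, such as Rb1 and Cdkn1b, gave no usable direction there.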
